A study of Homo sapiens with 6 samples.

Results

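The actin, serum response factor (SRF) and contractile genes described here are 10 of the 58336 genes in the authors' count table, taken by matching the Ensembl identifier to the symbol. They comprise the actins *ACTB*, *ACTG1* and *ACTA2*, the actin-binding genes *TAGLN*, *TAGLN2*, *TPM1* and *TPM2*, the myosin light chain *MYL9*, the adhesion gene *VCL*, and *SRF* itself. RNA came from A2780, a human ovarian cancer cell line, after 48 h with DMSO vehicle in 3 libraries or after 48 h with 6 µM TH588, a first-generation mitotic MTH1 inhibitor, in 3 libraries. All 6 libraries came from the same line, for which the labels name no gene deletion or transgene, in biological triplicate, and replicates are named A, B and C. Total counts ran from 77634048 to 99074175 in 5 libraries and were 28537837 in TH588 replicate A, in which the small nucleolar RNA *SNORD3A* took 21.94% of the counts against 7.68% to 12.95% in the others.

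Actin monomers polymerize into filaments that tropomyosins and transgelins coat, that myosin II pulls on, and that vinculin couples to cell adhesions. SRF is a transcription factor that binds a short DNA element, the CArG box, and works with different partners. With the myocardin-related factors MRTFA and MRTFB, which unpolymerized actin holds back, it drives actins and contractile genes. With the ternary complex factors (TCFs) ELK1, ELK3 and ELK4, which respond to mitogen signaling, it drives early genes such as *FOS* and *EGR1*.

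The label was checked against markers of the tissue. Of 10 ovarian epithelial markers, *PAX8*, *KRT7*, *KRT19*, *ESR1* and *CDH1* had at most 3 counts in every library. In CPM, which are counts scaled to a common library size by the TMM method, the summed level of that list was 3.82 to 4.60 CPM with DMSO and 11.02 to 12.17 CPM with TH588, mostly *KRT18* and *EPCAM*. Only these 2 genes of the list had enough counts to be tested. Both were higher, *EPCAM* with a log2 fold change of 2.87 (edgeR adjusted p = 8.23e-07) and *KRT18* with 0.88 (edgeR adjusted p = 0.00017). Fibroblast markers summed to 1591 to 1919 CPM with DMSO and 1882 to 2622 CPM with TH588, nearly all of it the collagen gene *COL3A1*. The ranges of that sum overlapped, but 3 of the 6 genes were higher and none was lower: *COL3A1* (log2 fold change 0.39, edgeR adjusted p = 0.0154), *COL1A2* (1.37, adjusted p = 0.00012) and *PDGFRB* (0.61, adjusted p = 0.019). Of all genes tested, 24.2% were called higher and 25.3% lower. Fewer fibroblast markers were higher without TH588 replicate B or at an adjusted p under 0.01. Smooth muscle markers, a list that holds *ACTA2* and *TAGLN*, summed to 98.8 to 109.9 CPM and 105 to 121 CPM, a sum in which members moved in opposite directions. *LMOD1*, which encodes leiomodin, an actin nucleator of smooth muscle, rose from 4.14 ± 0.0958 to 34.1 ± 1.38 CPM (SD, n = 3 each; log2 fold change 3.04, SE 0.10, edgeR adjusted p = 2.48e-09), with 13.5% of its exon bases shared with other genes, while *TAGLN* and *ACTG2* fell. In all, 3 of the 8 smooth muscle markers tested were higher and 2 were lower, beside the same 24.2% and 25.3% of all genes. *MYOCD*, the muscle partner of SRF, had 0 counts in all 6 libraries and *DES* had 0 in 5 of 6. Where no read was counted, the limit is 3 counts (0.0276 to 0.112 CPM, by library), for counting error only. The part of these markers in the results below was not tested.

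The DNA element of SRF is shown first, since it is the sequence that ties target genes to this factor. The CArG box opens with CC, closes with GG and holds only A and T between. A match on either strand is also a match on the other, although the letters of a box can differ between strands. It was searched in the 250 bases before each RefSeq transcription start (build GRCh38.p14), where 1.16% of 35116 windows hold it. Windows were found for 7 of the 10 members, all but *ACTB*, *TAGLN* and *MYL9*, and a box stood in those of *ACTG1* and *SRF*. The sequences are printed 5′ to 3′ with boxes in capitals, for these 2 members and for *ACTG2* and *EGR1*, a contractile actin and an early gene that moved in opposite directions after TH588. The *SRF* window is chr6:43171019-43171268 (plus strand), that of *ACTG1* is chr17:81512800-81513049 (minus strand), that of *ACTG2* is chr2:73892758-73893007 (plus strand), and that of *EGR1* is chr5:138465229-138465478 (plus strand).
SRF: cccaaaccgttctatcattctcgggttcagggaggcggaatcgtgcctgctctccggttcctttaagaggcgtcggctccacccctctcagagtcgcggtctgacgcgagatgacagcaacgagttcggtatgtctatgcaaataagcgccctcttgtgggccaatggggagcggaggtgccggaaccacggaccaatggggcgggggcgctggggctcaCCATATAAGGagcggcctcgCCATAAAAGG
ACTG1: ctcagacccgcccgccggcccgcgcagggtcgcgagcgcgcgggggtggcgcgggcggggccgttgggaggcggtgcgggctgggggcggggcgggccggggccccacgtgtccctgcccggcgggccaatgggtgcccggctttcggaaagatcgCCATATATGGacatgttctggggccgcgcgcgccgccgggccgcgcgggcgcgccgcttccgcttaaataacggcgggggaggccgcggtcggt
ACTG2: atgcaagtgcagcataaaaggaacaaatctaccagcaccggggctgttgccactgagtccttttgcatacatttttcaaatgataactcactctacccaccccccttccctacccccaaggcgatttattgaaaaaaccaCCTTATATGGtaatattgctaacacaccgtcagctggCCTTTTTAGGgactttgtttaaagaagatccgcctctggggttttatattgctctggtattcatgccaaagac
EGR1: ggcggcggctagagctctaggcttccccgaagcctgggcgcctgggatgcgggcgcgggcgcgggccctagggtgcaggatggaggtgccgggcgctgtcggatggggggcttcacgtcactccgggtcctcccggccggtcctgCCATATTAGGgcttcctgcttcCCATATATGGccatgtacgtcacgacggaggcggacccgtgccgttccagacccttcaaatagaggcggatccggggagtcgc
The first bases of the boxes lay 30 and 10 bases before the start in *SRF*, 94 bases before it in *ACTG1*, 110 and 73 in *ACTG2*, and 105 and 83 in *EGR1*. Among genes listed as MRTF-SRF targets, 11 of the 26 with a window held a box, against 1.44% of all genes with a window. The shares are not like for like, since those 26 genes had 55 windows and all 27305 genes had 35116. A gene may also be listed as a target because a box is known in it, and the difference was not tested. A match describes the letters and is not a measured binding site. Only exact matches in these 250 bases were sought. A gene without one may still hold a variant of the box, or a box elsewhere, which was not searched.

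TH588 was compared with DMSO to find out how these cells' transcripts had changed after 48 h. All 10 members could be tested, and 6 were lower (*TAGLN*, *TPM1*, *TPM2*, *ACTB*, *ACTG1* and *MYL9*), 2 were higher (*ACTA2* and *VCL*) and 2 did not pass the test (*SRF* and *TAGLN2*) at an adjusted p under 0.05 from edgeR's quasi-likelihood test. The changes ran from a log2 fold change of -1.79 for *TAGLN* to 2.00 for *ACTA2*, with a median of -0.29, beside 0.019 for all genes. The treatment moved much of the transcriptome, since 49.6% of the 15844 genes tested were called, 25.3% as lower and 24.2% as higher. The libraries of the groups did not overlap for 8 members, which also held for 57.7% of all genes tested. Without TH588 replicate A the counts were again 6 lower and 2 higher. In RNA from whole cultures, a change in the share of cells that express a gene and a change of RNA per cell cannot be told apart.

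**Figure D1:**
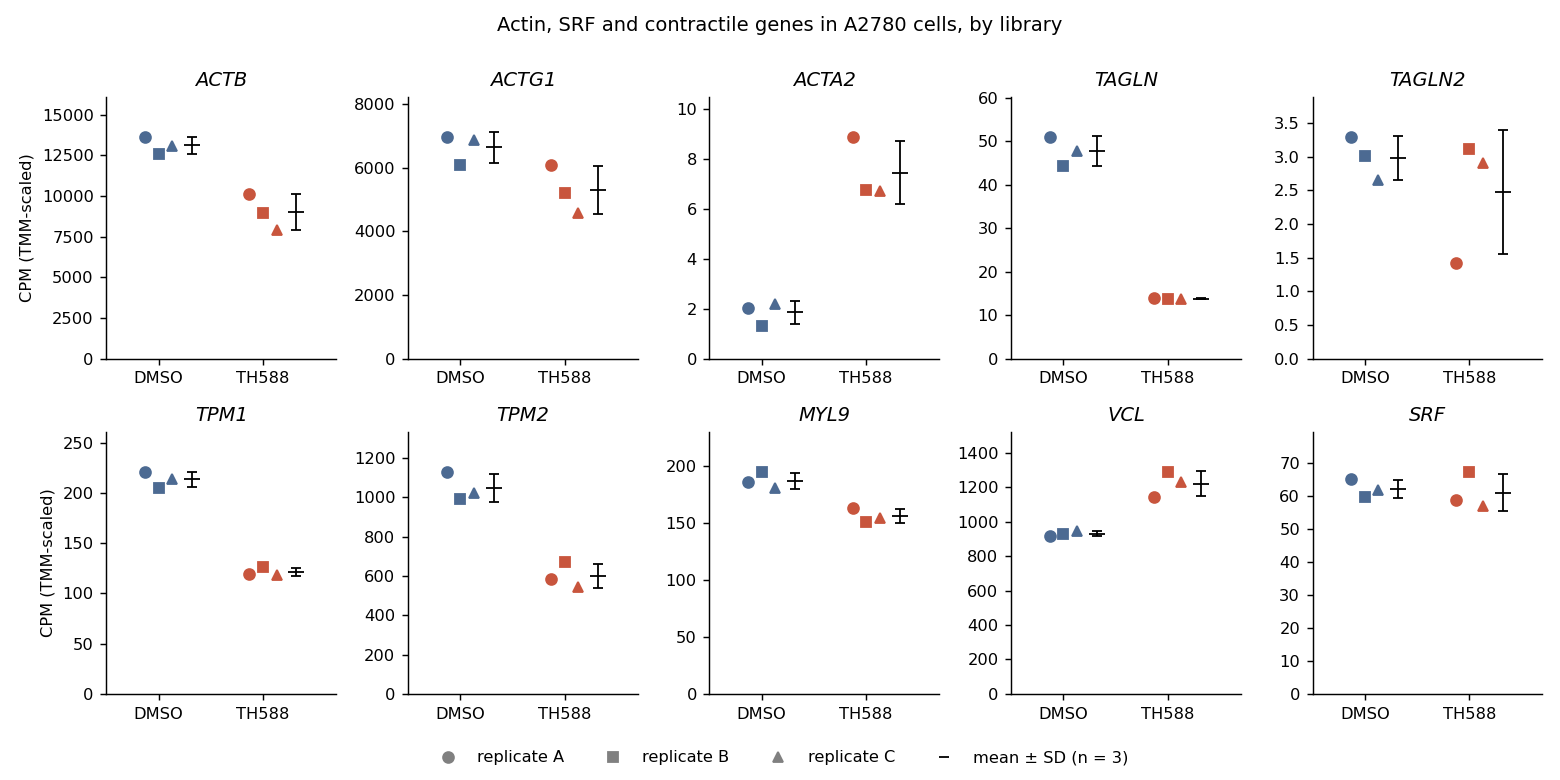
Each panel shows 1 gene, with TMM-scaled CPM on a linear axis from 0, DMSO libraries in blue, TH588 libraries in red, the replicate letter by shape, and the mean ± SD of 3 libraries beside them. The groups are apart for every gene but *TAGLN2*, where TH588 replicate A lies lowest at 1.42 CPM, and *SRF*.

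The cytoplasmic actins are the bulk of the actin in nonmuscle cells. *ACTB* (ENSG00000075624, chromosome 7 of GRCh38 from 5527147 to 5563784), which encodes beta-actin, stood at 13649, 12601 and 13093 CPM with DMSO (A, B and C in this order) and at 10133, 8968 and 7915 CPM with TH588. Every TH588 library was below every DMSO library, and its log2 fold change was -0.54 (SE 0.10, edgeR adjusted p = 0.000591). *ACTG1* (ENSG00000184009, chromosome 17 from 81509971 to 81523847), which encodes the closely similar gamma-actin, read 6972, 6082 and 6870 CPM with DMSO and 6081, 5205 and 4571 CPM with TH588. The groups met almost edge to edge, with DMSO replicate B and TH588 replicate A at 6082 and 6081 CPM. The log2 fold change of -0.33 (SE 0.11, edgeR adjusted p = 0.0228) lost the call with library size only (-0.24, adjusted p = 0.068) and without DMSO replicate A (-0.27, 0.0864), DMSO replicate C (-0.29, 0.0854) or TH588 replicate C (-0.22, 0.126).

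Both actins have many processed pseudogene copies, and the handling of reads that match several genes is not stated, so their values carry that uncertainty. Of 32 pseudogenes named for *ACTB* or *ACTG1*, 9 had enough counts to be tested and 1 was called, *ACTG1P10*, which rose from 2.14 ± 0.411 to 3.85 ± 0.874 CPM (SD, n = 3 each) and shares 57.3% of its bases with exons of other genes. These levels are small beside those of the parent genes.

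*ACTA2* (ENSG00000107796, chromosome 10 from 88935074 to 88991339) encodes alpha-smooth-muscle actin, the contractile isoform of smooth muscle and myofibroblasts. It stood at 2.02, 1.32 and 2.20 CPM with DMSO and rose to 8.89, 6.76 and 6.70 CPM with TH588, from 109 to 206 counts per library to 238 to 735. All 3 treated libraries lay above the highest control, with a log2 fold change of 2.00 (SE 0.20, edgeR adjusted p = 5.72e-06). The gene overlaps its neighbor *FAS*, the death receptor gene, on the opposite strand: 380 of its 2976 exon bases (12.8%) are also exon of *FAS*, and 17.3% are exon of the antisense gene *ACTA2-AS1*. *FAS* itself went from 3.10, 3.54 and 2.98 CPM to 17.1, 14.4 and 17.7 CPM, a log2 fold change of 2.35 (SE 0.13, edgeR adjusted p = 8.68e-08), while *ACTA2-AS1* had at most 0.0243 CPM in any library. Within a library, the ratio of *ACTA2* to *FAS* counts per kb lay between 0.533 and 1.06 with DMSO and between 0.542 and 0.741 with TH588, so those ranges overlapped, a ratio chosen after seeing the data. Whether the counting used strand is not stated, and the part of *FAS* reads in the *ACTA2* count was not tested.

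The muscle actins that are not members were near the floor or moved differently. *ACTG2*, the gamma-actin of gut smooth muscle, read 2.94, 3.04 and 4.46 CPM with DMSO and 0.299, 0.313 and 0.443 CPM with TH588, the largest fall among the actin isoforms (log2 fold change -3.27, SE 0.26, edgeR adjusted p = 9.37e-07). Its treated level rests on 8, 34 and 37 counts. *ACTA1* of skeletal muscle read 0.742 to 1.07 CPM with DMSO and 0.800 to 1.23 CPM with TH588 and did not pass the test (adjusted p = 0.739, edgeR), and *ACTC1* of heart had at most 4 counts in a library and was not tested. *ACTA2* and *ACTG2*, both of smooth muscle, moved in opposite directions.

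Measured per kb of exon, the sum of the 6 actin genes, which was not tested, was 5948 ± 304 and 4328 ± 569 CPM per kb with DMSO and TH588 (SD, n = 3 each). *ACTB* made up 62.7% ± 0.996 of that sum with DMSO and 59.2% ± 0.504 with TH588, and *ACTG1* made up 37.3% ± 0.994 and 40.8% ± 0.501. *ACTA2* accounted for 0.0104% ± 0.00224 and 0.0578% ± 0.00423 of it. *ACTA2* was a very small part of the actin transcripts in both groups.

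*TAGLN* and the tropomyosin genes fell furthest among the members. *TAGLN* (ENSG00000149591, chromosome 11 from 117199321 to 117204782), which encodes transgelin or SM22, an actin-bundling protein and a classic SRF target, stood at 51.0, 44.2 and 47.8 CPM with DMSO and at 13.9, 13.7 and 13.7 CPM with TH588. The treated libraries were nearly identical and 3.46-fold below the controls, with a log2 fold change of -1.79 (SE 0.09, edgeR adjusted p = 3.72e-08) that kept its call in every alternative run, between -1.85 and -1.69. *PCSK7*, on the opposite strand, covers 11.4% of its exon bases. Its relative *TAGLN2* (ENSG00000158710, chromosome 1 from 159918107 to 159925732) was low, at 3.30, 3.01 and 2.65 CPM with DMSO and 1.42, 3.11 and 2.90 CPM with TH588. The groups overlapped, and the log2 fold change of -0.21 (SE 0.23, edgeR adjusted p = 0.478) was 0.02 without TH588 replicate A, which held 38 counts of the gene.

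Tropomyosins lie along the filament and set which proteins can reach it. *TPM1* (ENSG00000140416, chromosome 15 from 63042632 to 63071915) read 221, 205 and 214 CPM with DMSO and 119, 126 and 119 CPM with TH588. *TPM2* (ENSG00000198467, chromosome 9 from 35681992 to 35690121) read 1129, 991 and 1021 CPM with DMSO and 586, 669 and 546 CPM with TH588. Both fell well clear of the control range and by like amounts, with log2 fold changes of -0.82 (SE 0.08, edgeR adjusted p = 3.22e-06) and -0.80 (SE 0.09, edgeR adjusted p = 2.14e-05). Exons on the opposite strand cover 21.4% of the exon bases of *TPM1*, most of them from *TPM1-AS*, which had at most 0.0961 CPM. Of the other tropomyosin genes, *TPM3* fell (log2 fold change -1.02, SE 0.11, edgeR adjusted p = 9.01e-06), from 625 ± 58.4 to 308 ± 41.6 CPM (SD, n = 3 each), and *TPM4* did not pass the test (log2 fold change -0.15, SE 0.08, edgeR adjusted p = 0.124). Counts per gene merge the muscle and nonmuscle isoforms that these genes produce by splicing.

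*MYL9* (ENSG00000101335, chromosome 20 from 36541484 to 36551447) encodes a regulatory light chain whose phosphorylation switches myosin II on. It read 186, 195 and 180 CPM with DMSO and 163, 151 and 154 CPM with TH588, a modest fall (log2 fold change -0.26, SE 0.08, edgeR adjusted p = 0.0131). The groups did not overlap, but the call was lost with library size only (-0.16, adjusted p = 0.166) and without DMSO replicate A (-0.24, 0.0559) or B (-0.23, 0.0646). *VCL* (ENSG00000035403, chromosome 10 from 73995193 to 74121363) encodes vinculin, which links actin to integrin adhesions. It went the other way, from 917, 926 and 946 CPM with DMSO to 1143, 1288 and 1231 CPM with TH588, each treated library above each control (log2 fold change 0.39, SE 0.08, edgeR adjusted p = 0.00118). Exons of *AP3M1* on the opposite strand cover 11.1% of its exon bases, and *AP3M1* fell, with a log2 fold change of -0.43.

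*SRF* (ENSG00000112658, chromosome 6 from 43171299 to 43181507) showed no detectable change. It read 65.3, 59.8 and 61.9 CPM with DMSO and 59.0, 67.4 and 56.9 CPM with TH588, with the treated libraries on both sides of the controls. Its log2 fold change was -0.03 (SE 0.09, edgeR adjusted p = 0.813) and ranged from -0.11 to 0.08 over the alternatives. The RNA level of a transcription factor does not measure its activity.

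**Figure D2:**
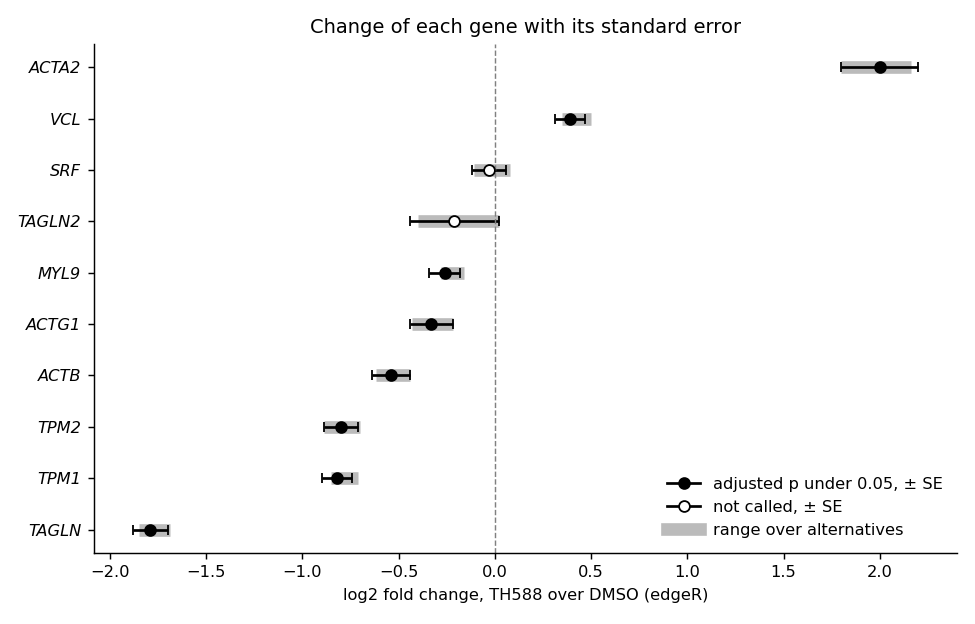
The log2 fold change of TH588 over DMSO (horizontal axis) is plotted for each of the 10 genes with its standard error, filled where the adjusted p was under 0.05, and the grey bar spans the values under all alternatives run. *TAGLN*, at -1.79, and *ACTA2*, at 2.00, lie far from 0, while the bars of *SRF* and *TAGLN2* cross it.

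Levels were set side by side only per kb of exon, where a gene with many rarely used exons reads low. With DMSO the order was *ACTB* (3727 ± 149 CPM per kb, SD, n = 3), *ACTG1* (2219 ± 163), *TPM2* (322 ± 22.3), *VCL* (93.1 ± 1.52), *MYL9* (66.2 ± 2.56), *TPM1* (16.6 ± 0.607), *SRF* (14.8 ± 0.655), *TAGLN* (12.2 ± 0.877), *TAGLN2* (1.20 ± 0.131) and *ACTA2* (0.621 ± 0.156), and each gap between neighbors was larger than their SDs. With TH588, *SRF* (14.5 ± 1.32 CPM per kb) stood above *TPM1* (9.42 ± 0.333), and *ACTA2* (2.50 ± 0.420) stood above *TAGLN2* (0.995 ± 0.370). *TAGLN* read 3.52 ± 0.0287 CPM per kb, close above *ACTA2*. The members with the largest changes were among the scarcest.

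Ratios of 2 genes in the same library do not depend on how libraries are scaled. An exact two-sided permutation test of 3 against 3 libraries cannot go below p = 0.1, and the adjusted p over the 5 ratios was 0.125 wherever that limit was reached. The log2 ratio of *ACTG1* to *ACTB* counts per kb was higher with TH588 by 0.21, at -0.75 ± 0.06 and -0.54 ± 0.03 (SD, n = 3 each; exact permutation p = 0.1). The groups did not overlap. The ratio of *TAGLN* to *TAGLN2* was 9.83, 9.33 and 11.5 with DMSO and 6.22, 2.81 and 2.996 with TH588 (exact permutation p = 0.1). The difference on the log2 scale was -1.44 and was -1.81 without TH588 replicate A. The ratio of *TPM2* to *TPM1* ran from 18.9 to 20.3 with DMSO and from 18.3 to 21.0 with TH588, so the tropomyosin genes fell without a detectable change of their balance (log2 difference 0.01, exact permutation p = 0.9). The log2 ratio of *ACTA2* to *ACTB* was -12.59 ± 0.35 and -10.00 ± 0.11 (SD, n = 3 each; exact permutation p = 0.1).

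*ACTB* is also a common reference gene for qRT-PCR, as is *RPLP0*, which encodes a ribosomal stalk protein. The ratio of *ACTB* to *RPLP0* counts per kb was 7.73, 7.36 and 7.52 with DMSO and 4.72, 4.70 and 4.48 with TH588, a log2 difference of -0.70 with SDs of 0.04 in each group (exact permutation p = 0.1). Of 15 genes often used as references, *ACTB* among them, 9 were lower and 2 were higher, beside 25.3% and 24.2% of all genes. Among the lower genes, *TBP* kept its call in 5 of 14 alternatives and *GAPDH* in 12. *TFRC* and *HPRT1* fell furthest (log2 fold changes -0.88 and -0.78), *RPL13A* rose (0.38), and *RPLP0*, *B2M*, *SDHA* and *GUSB* did not pass the test.

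**Figure D3:**
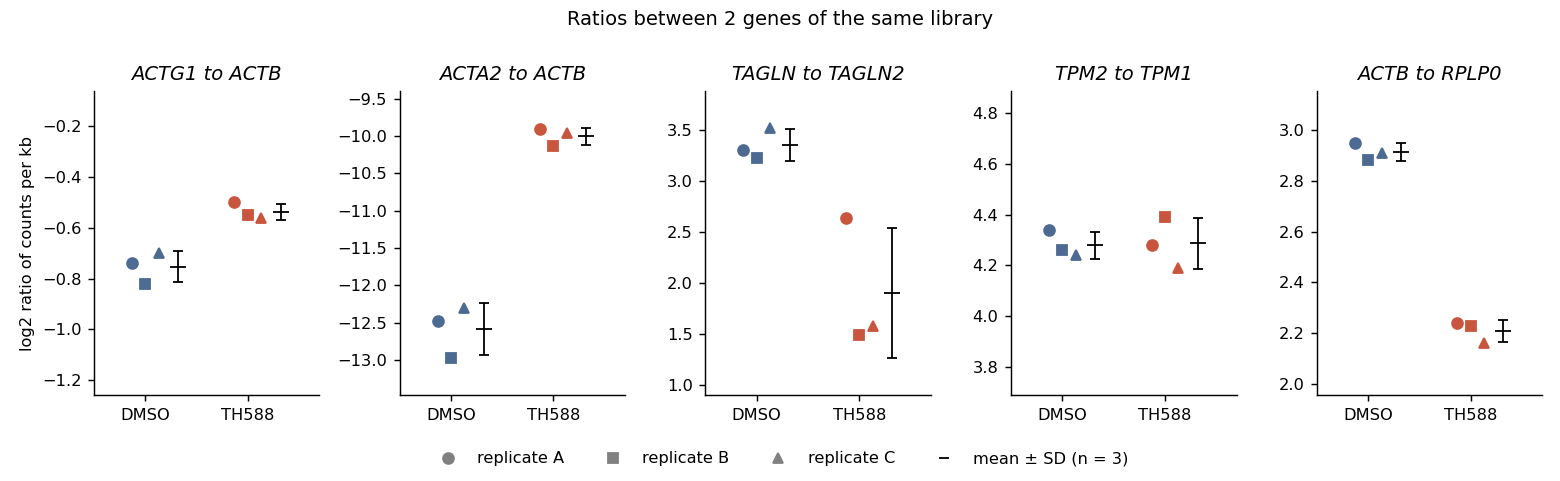
Each panel shows the log2 ratio of counts per kb of 2 genes within a library, for 3 DMSO (blue) and 3 TH588 (red) libraries, with the mean ± SD beside them and vertical axes that differ and do not start at 0. The groups are apart for every pair but *TPM2* to *TPM1*.

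Gene lists of the pathway, some of which hold members, put the members in context. Over all genes tested, 25.3% were called lower and 24.2% higher. Among 11 tropomyosin, transgelin and calponin genes, with the members *TAGLN*, *TAGLN2*, *TPM1* and *TPM2* among them, 10 were tested. Of these, 5 were lower and none was higher, and the median was -0.21. The calponins *CNN1* and *CNN2* and the caldesmon gene *CALD1* did not pass the test, with values of 0.02, 0.05 and 0.12. *CNN3* (-0.21, edgeR adjusted p = 0.0466) lost its call in 12 of 14 alternatives, which leaves 4 genes lower. These are *TPM3* and the members *TAGLN*, *TPM1* and *TPM2*. Among 15 genes of nonmuscle myosin II and its regulation, 8 were lower and 3 were higher (median -0.25), although only 5 were lower without DMSO replicate A, 5 without DMSO replicate C and 4 with library size only. *ROCK2*, a kinase that raises myosin light chain phosphorylation, fell from 142 ± 2.60 to 77.3 ± 3.43 CPM (SD, n = 3 each), and the heavy chain gene *MYH10* fell from 434 ± 38.0 to 269 ± 44.5 CPM. *RHOC*, which encodes a small GTPase, and the heavy chain gene *MYH14* rose, with log2 fold changes of 1.05 and 1.02.

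Counts for filament assembly and turnover are read beside the 25.3% of all genes called lower and the 24.2% called higher. Of 20 genes for monomer binding and turnover, 9 were lower and 4 were higher (median -0.22), and 3 were lower with library size only. *GSN*, which encodes the filament-severing protein gelsolin, rose from 32.3 ± 2.56 to 77.2 ± 4.54 CPM, and *TMSB15A* and *LIMK2* fell (log2 fold changes -0.68 and -0.57). Of 20 nucleation genes, 5 were lower and 2 were higher (median -0.02), shares no larger than those of all genes, with the formin genes *DIAPH3* and *DIAPH1* as the largest falls (-1.12 and -0.85) and *DAAM1* as the largest rise (1.06). Without TH588 replicate A, 5 of the nucleation genes were higher. Without DMSO replicate C, 3 were lower, and with library size only 2 were.

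Of 23 focal adhesion genes, the list that holds *VCL*, 22 were tested, 9 were lower and 4 were higher (median -0.11). These counts, and those of the contractile ring below, stand beside 25.3% of all genes called lower and 24.2% called higher. *FLNC*, which encodes a filamin, and *ITGA5*, the fibronectin receptor subunit, rose with *VCL* (log2 fold changes 0.92 and 0.76), while *PARVA* and *TLN2*, which encode parvin and a talin, fell (-1.11 and -0.98). The talin gene *TLN1*, whose product binds vinculin, stood at 246 CPM in both groups. Of 12 genes of the contractile ring that divides the cell, 10 were lower and none was higher, with a median of -0.66, and *ANLN*, which encodes anillin, fell from 176 ± 8.79 to 67.6 ± 4.75 CPM (SD, n = 3 each). That list shares genes with the myosin and nucleation lists, such as *MYH10* and *DIAPH3*, so the counts of these lists are not separate.

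SRF targets are given by the partner they are known for, with counts to be read beside the 25.3% of all genes called lower and the 24.2% called higher. Of 30 genes listed as MRTF-SRF targets, 9 of the members with *SRF* itself among them, 29 were tested, 10 were lower, 6 were higher and 13 did not pass the test (median -0.04). *CCN1*, which encodes a secreted matricellular protein, rose from 52.7 ± 4.64 to 145 ± 4.96 CPM (SD, n = 3 each). Of the 11 targets with a CArG box in the window searched, 5 were lower (*ACTG1*, *ACTG2*, *FHL2*, *FILIP1L* and *FLNA*), none was higher, 5 did not pass the test and *ACTC1* could not be tested. That subset depends on the windows at hand and on exact matches. Only 26 of the 30 targets had a window, and *ACTB*, *TAGLN* and *MYL9* had none. *ACTA2* and *VCL*, which were higher, had windows without an exact match. The call of *ACTG1* was lost in some alternatives, as given above. Of 8 early genes of the TCF arm, 7 were higher and none was lower, with a median of 2.20. Among them, *EGR1* and *EGR2* also held a box and rose (log2 fold changes 3.54 and 1.94), *EGR2* from 0.289 CPM with DMSO. *EGR1* went from 17.5 ± 3.86 to 203 ± 23.9 CPM and *FOS* from 3.17 ± 0.647 to 31.8 ± 4.96 CPM (SD, n = 3 each), and *IER2* did not pass the test (0.75, adjusted p = 0.0666, edgeR). The difference between these lists was not tested.

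*MRTFA* read 28.1 ± 4.24 and 31.7 ± 4.801 CPM (SD, n = 3 each) and did not pass the test, nor did *ELK1*, *ELK3*, *ELK4* or the MRTF repressor gene *SCAI*, although *ELK1* (log2 fold change 0.30, adjusted p = 0.0593, edgeR) passed it in 6 of the alternatives. *MRTFB* rose slightly, from 28.4 ± 1.32 to 33.5 ± 0.403 CPM (0.24, adjusted p = 0.0261, edgeR), a call lost in 5 of 14 alternatives, which were no filter, the replicate block and leaving out any 1 of the DMSO replicates. *FHL2*, an SRF target and cofactor, fell from 8.34 ± 0.273 to 4.88 ± 1.39 CPM. *ABRA*, an actin-binding activator of MRTF, rose from 0.403 ± 0.200 to 1.03 ± 0.0489 CPM (log2 fold change 1.35, SE 0.36, edgeR adjusted p = 0.00786). Its level was low in both groups, at 17, 50 and 37 counts with DMSO and 26, 113 and 89 with TH588. In all, 2 of the 9 genes of *SRF* and its cofactors tested were higher and 1 was lower, beside 24.2% and 25.3% of all genes. The number higher was 4 without TH588 replicate A and 1 without DMSO replicate B or C.

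**Figure D4:**
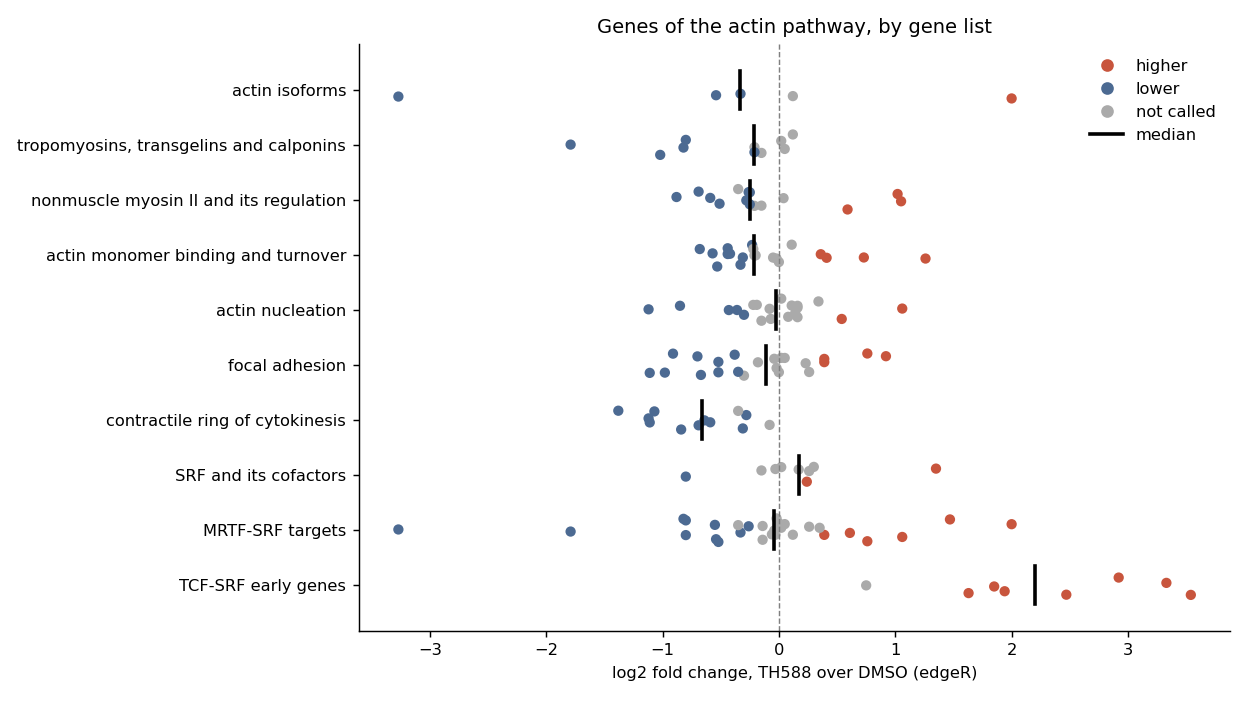
Each point is a tested gene at its log2 fold change of TH588 over DMSO, in rows by gene list, red where higher, blue where lower and grey where not called, and the black bar is the median of the list. The early genes lie right of 0 with a median of 2.20, the contractile ring genes left of it with a median of -0.66, and the MRTF-SRF targets on both sides.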

How the data were processed

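The authors deposited a table of raw counts per gene for 6 libraries. Per the study's methods and the submitters' processing notes, RNA was sequenced after TruSeq v2 preparation, aligned to GRCh38 with TopHat and counted with featureCounts 1.4.6. Treatment of multi-mapping reads and of strand is not given in the sources used here. Symbols were matched by Ensembl identifier for 57754 of 58336 genes, and coordinates are those of the authors' table.

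Counts were compared with edgeR 4.0.16 in R 4.3.3 (TMM, default filter on low counts, quasi-likelihood test, Benjamini-Hochberg adjustment over all 15844 genes tested). Standard errors are the log2 fold change over the square root of F. CPM uses TMM library sizes. The procedure was tested on simulated data first.

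Members and gene lists were chosen with earlier results of these data known. Beside the members, genes named are at most 2 rises and 2 falls per list with adjusted p under 0.05, groups that do not overlap and a mean log2 CPM of 2 or more, and any actin isoform, SRF cofactor or reference gene. *FAS*, the other overlapping genes, and the further genes named for counts (*SNORD3A*, markers, *CNN1* to *CNN3*, *CALD1*, *TPM4*, *TLN1*, *IER2*, *ACTG1P10* and CArG box holders) were chosen after their values were seen. Alternatives used other scalings, filters, DESeq2 1.42.0, limma-voom (limma 3.58.1), each library left out, and a replicate block. A named gene that the rule allows is not reported here.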

Additional observations from a re-analysis of the deposited data

How the results depend on the processing

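The 2 members that were higher were called under every alternative run. The 6 that were lower numbered from 4 to 6 when 1 replicate was left out, 4 with library size only and 4 at an adjusted p under 0.01. Of 140 values of the members under alternatives, 128 kept their direction and call, 7 lost the call and 5 changed sign. The sign changes were those of *TAGLN2* (0.02 without TH588 replicate A, and -0.40 to 0.02 with 1 replicate left out) and *SRF* (0.08 with library size only, 0.03 without DMSO replicate A, 0.01 without TH588 replicate A and 0.04 without TH588 replicate C, lowest -0.11), neither of which was called. Other uncalled genes that changed sign were *ACTA1* (-0.02, highest 0.27) and *SCAI* (-0.01) without TH588 replicate A, *SDHA* (0.07 with library size only, 0.01 without DMSO replicate A, 0.05 without TH588 replicate C, lowest -0.09) and *GUSB* (0.03, 0.01 and 0.01 likewise, lowest -0.11). The log2 ratio of *TPM2* to *TPM1* differed by -0.042 to 0.06 across the fits that left out a replicate. With library size only the median of all genes was 0.126 (0.141 with no filter), against 0.019, and 60.4% of called genes were higher, against 48.9%. The cause was not tested.

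Counts of lists that moved by over 1.5 times, beside those in the report, were myosin genes lower (8, and 4 at an adjusted p under 0.01), SRF cofactors higher (2, and 1 with the block or at 0.01), nucleation genes higher (2, and 1 with the block, at 0.01 or without DMSO replicate A, DMSO replicate B or TH588 replicate B) and lower (5, and 3 at 0.01), smooth muscle markers lower (2, and 1 with at least 10 counts in every library), fibroblast markers higher (3, and 1 at 0.01 or without TH588 replicate B), reference genes higher (2, and 4 with library size only) and actin pseudogenes higher (1, and 2 in 6 alternatives).

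Libraries that share a letter showed no sign of pairing: their deviations within each group had correlations of -0.07, -0.08 and 0. The labels do not say whether the letter marks a pairing. A fit with the replicate block called 7195 genes, of which 7129 were called without it. The same 6 members were lower and 2 higher with the block, and an exact sign-flip test of 3 pairs gave p = 0.25, its smallest value, for each ratio but that of *TPM2* to *TPM1*, at 1.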
